A study of Sus scrofa with 12 samples.

Results

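The genes described here encode isoenzymes of glycolysis, in somatic forms and in forms made by germ cells. The set names 10 genes, PGK1, PGK2, LDHA, LDHB, LDHC, GAPDH, GAPDHS, HK1, HK2 and PKM. Their rows were taken by name from gene tables of 30640 rows, but the set was chosen with earlier results of these data known. Rows of exactly that name were found for 9 of the 10. PKM had no row of its name. The row of Ensembl identifier ENSSSCG00000001930.4, which a reference table of gene names pairs with PKM, is given beside the members and is not counted among them.

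The samples were testis and epididymis from untreated adult boars of an inbred line of Banna mini-pigs (BMI). Each tissue had 5 short-read RNA libraries of poly(A)-enriched RNA, numbered 1 to 5, and both tissues share the inbred strain. The file headers name the same boars in both tissues (numbers 21, 23, 25, 27 and 29), so libraries with the same replicate number come from the same animal. Age is 12 months in the labels, but in the headers it is 12, 12, 11, 17 and 11 months for replicates 1 to 5. Another 2 samples, long-read libraries from pooled animals, were not analysed here. Both tissues were sequenced as a whole, so fewer cells of a type and less RNA per cell cannot be told apart. The number of boars and their common inbred origin limit what can be said of other pigs.

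Glycolysis splits glucose into pyruvate, and lactate dehydrogenase then interconverts pyruvate and lactate. Spermatids and sperm carry their own versions of several of these enzymes, and in sperm many of them are anchored to the fibrous sheath of the tail, where they supply ATP for motility. PGK1 lies on the X chromosome, which is silenced during male meiosis, and PGK2 is its autosomal retrogene copy, expressed in meiotic and later germ cells. LDHC is the lactate dehydrogenase of spermatocytes and sperm, and GAPDHS is the glyceraldehyde phosphate dehydrogenase of spermatids. HK1 also has germ cell transcripts with their own start, which a gene-level count does not separate from the somatic ones.

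By the RefSeq table of build Sscrofa11.1, PGK1 spans 62187472 to 62210321 on chromosome X and PGK2 spans 43839239 to 43840892 on chromosome 7. The 1654 bases of PGK2 compare with 22850 for PGK1. LDHC (chromosome 2, 40748567 to 40810114) and LDHA (chromosome 2, 40814163 to 40827284) are neighbours, 4048 bases apart. GAPDHS lies on chromosome 6 (44968965 to 44978992), 202 bases from TMEM147, and GAPDH on chromosome 5 (64129678 to 64135194). HK1 lies on chromosome 14 (72383328 to 72460927), HK2 on chromosome 3 (68155656 to 68231187) and PKM on chromosome 7 (60971807 to 61032780). The table lists LDHB at 2 places, chromosome 2 (12988754 to 12990033) and chromosome 5 (51810932 to 51831218). The deposited LDHB row, 1360 bases long, could not be assigned to either, so its values are uncertain.

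The libraries held 18715154 to 30211957 reads in testis and 17980578 to 21937263 in epididymis. A count of 0 allows up to 3 reads, or 0.0993 to 0.167 counts per 1000000 reads (CPM), a limit that covers counting error only. In each tissue 1 library stood apart. Testis replicate 4 had 7.75 CPM of the signal recognition particle RNA (row Metazoa_SRP), against 7888 to 9134 in the other testis libraries. Epididymis replicate 3 had 290 CPM of the protamine PRM1, against 10.5 to 37.0 in the others. The tissues were checked against marker genes, from lists written with earlier results of these data known. Of the haploid germ cell list all 17 genes with a row were called higher in testis, as were all 5 Leydig cell genes with a row. All 12 meiotic genes were also called toward testis. Of the 9 Sertoli cell genes 8 were called toward testis and 1 was not called. SOX9, AMH and AMHR2 of the Sertoli list overlapped between the tissues in CPM. For scale, 36.6% of all genes tested were called toward testis and 37.8% toward epididymis. All 13 epididymal epithelium genes with a row were called higher in epididymis, of which 1 had no read in any testis library. All 6 smooth muscle genes were also called higher in epididymis, where they summed to 5545 to 16037 CPM against 235 to 390 in testis. The part of these cell types in the member levels was not tested.

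The germ cell isoforms were higher in testis and most somatic forms were higher in epididymis. Of the 9 members with a row, 8 passed the filter on low counts, and edgeR's quasi-likelihood test (adjusted p under 0.05) called all 8. PGK2, LDHC, GAPDHS and HK1 (4 members) were higher in testis, and PGK1, LDHA, LDHB and HK2 (4 members) were higher in epididymis. Among all 17225 genes tested 74.4% were called, 36.6% toward testis and 37.8% toward epididymis, so a call is common in this comparison. In 7 of the 8 members the libraries of the tissues did not overlap in CPM, against 61.4% of all genes tested (32.1% with testis above and 29.3% with testis below). LDHA was the exception. The median log2 fold change, testis over epididymis, was 6.61 for the 3 germ cell isoforms and -0.07 for all genes tested.

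**Figure D1:**
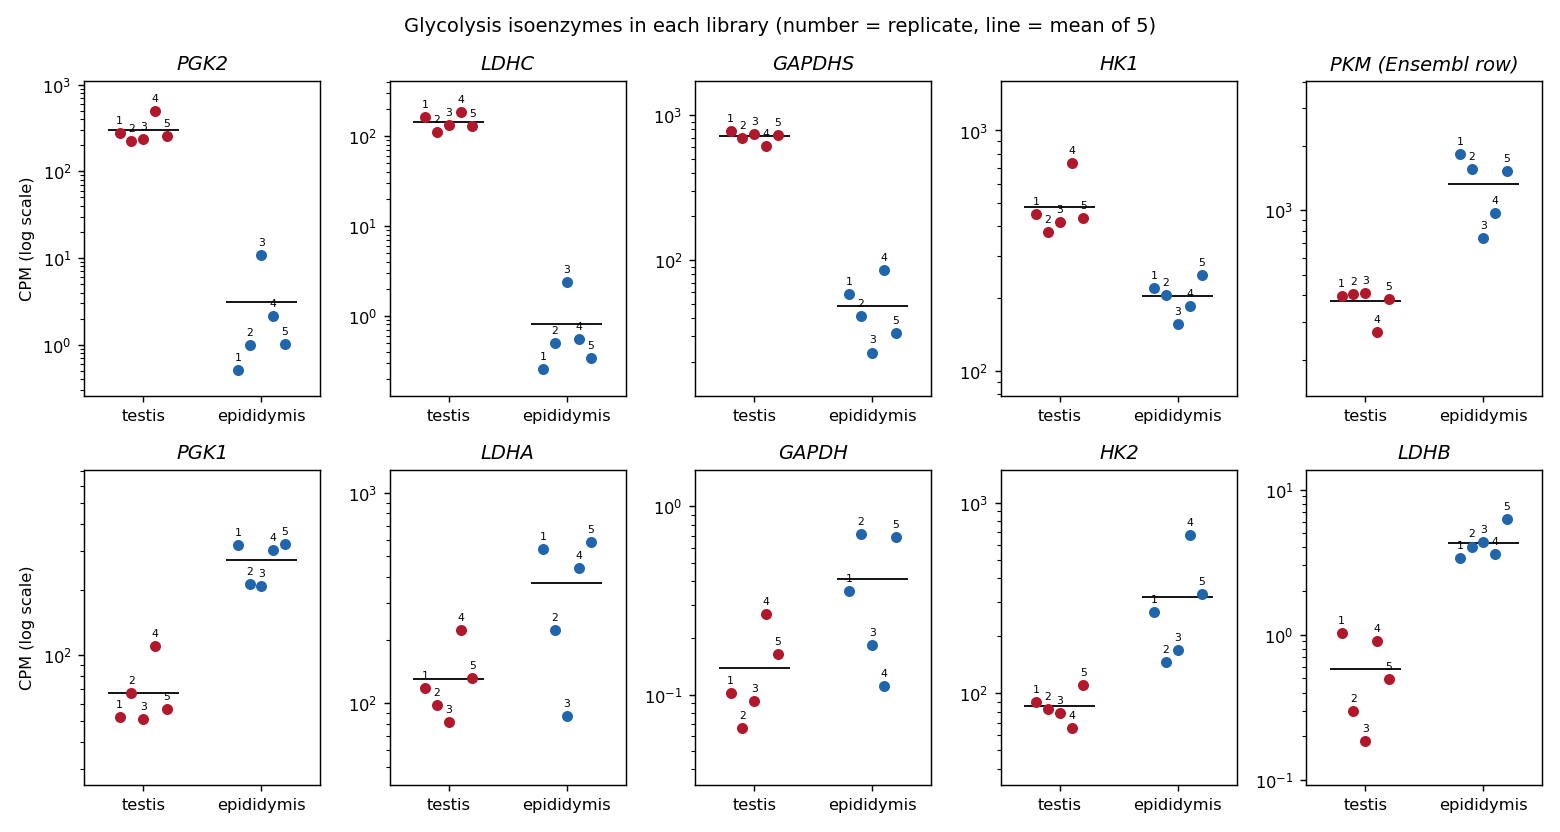
CPM of each gene on a log scale in the 5 testis (red) and 5 epididymis (blue) libraries, numbered by replicate, with the mean as a line; each panel has its own scale. PGK2, LDHC, GAPDHS and HK1 lie higher in every testis library, LDHA overlaps through epididymis replicate 3, and the GAPDH row lies below 1 CPM everywhere.

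PGK2, which makes ATP from bisphosphoglycerate in germ cells, had 275, 225, 234, 500 and 254 CPM in testis replicates 1 to 5. In epididymis replicates 1 to 5 it had 0.509, 0.986, 10.9, 2.17 and 1.03 CPM. Testis replicate 4 was the highest of its tissue and epididymis replicate 3 of the other, with no overlap. The log2 fold change was 6.61 ± 0.83 (SE), a 97.5-fold difference (edgeR adjusted p = 1.97e-05). It was 7.99 without epididymis replicate 3 and 7.45 with the boar as a block.

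LDHC, the lactate dehydrogenase of germ cells, had 163, 112, 133, 186 and 129 CPM in testis. In epididymis it had 0.255, 0.493, 2.37, 0.556 and 0.343 CPM, which rests on 5 to 52 reads per library. Again epididymis replicate 3 was the highest of its tissue, far below the lowest testis library. LDHC had the largest difference of the members, log2 7.49 ± 0.59 or 180-fold (edgeR adjusted p = 4.54e-07), and 8.44 without epididymis replicate 3.

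GAPDHS, which acts on glyceraldehyde phosphate in spermatids and sperm, had 780, 696, 742, 616 and 729 CPM in the testis libraries, the tightest set among the germ cell isoforms. In epididymis it had 58.8, 41.0, 23.1, 86.2 and 31.5 CPM. The tissues did not overlap, and here epididymis replicate 3 was the lowest of its tissue. The log2 fold change was 3.92 ± 0.34, or 15.2-fold (edgeR adjusted p = 9.90e-07).

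The somatic counterparts ran the other way. PGK1, the phosphoglycerate kinase of most cells, had 51.8, 67.1, 50.8, 110 and 56.7 CPM in testis and 321, 212, 207, 305 and 323 in epididymis. All epididymis libraries lay above all testis libraries, by a log2 difference of 2.01 ± 0.25 or 4.03-fold (edgeR adjusted p = 1.95e-05). LDHA, the lactate dehydrogenase subunit typical of muscle, had 118, 98.1, 81.8, 222 and 132 CPM in testis and 540, 223, 87.2, 439 and 587 in epididymis. Epididymis replicate 3 fell within the testis range, and testis replicate 4 nearly reached epididymis replicate 2. LDHA was called higher in epididymis at a log2 fold change of -1.53 ± 0.46 (edgeR adjusted p = 0.0101), the smallest drop among the 4.

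The rows named LDHB and GAPDH held few reads in all libraries. LDHB, the lactate dehydrogenase subunit typical of heart, had 1.02, 0.298, 0.185, 0.908 and 0.493 CPM in testis and 3.36, 4.05, 4.33, 3.62 and 6.22 in epididymis, without overlap (a log2 fold change of -2.90 ± 0.45, with an edgeR adjusted p of 0.000106). GAPDH, often used as a reference gene, had 2 to 5 reads in each testis library and 2 to 14 in those of epididymis. It did not pass the filter on low counts. No source used here says how reads that match several places in the genome were counted. The GAPDH row is thus no measure of how much GAPDH mRNA these tissues hold, and the same doubt applies to the LDHB row. In the RefSeq table GAPDH also overlaps IFFO1 over 155 bases and a gene without a symbol over 314. The chromosome 2 place of LDHB overlaps a gene without a symbol over 1280 bases. The part of these overlaps in the counts was not tested.

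Among enzymes without a germ cell gene, the hexokinases split. HK1, which phosphorylates glucose at the mitochondrial surface, had 448, 377, 417, 730 and 432 CPM in testis and 220, 207, 157, 187 and 251 in epididymis. The tissues did not overlap, and the log2 fold change was 1.24 ± 0.22 or 2.36-fold (edgeR adjusted p = 0.000299). HK2, the insulin-responsive hexokinase of muscle and fat, had 89.8, 82.5, 78.5, 65.9 and 110 CPM in testis. In epididymis it had 266, 146, 168, 676 and 333 CPM, highest in replicate 4, and the tissues did not overlap (a log2 fold change of -1.85 ± 0.37, with an edgeR adjusted p of 0.000688). The row paired with PKM, pyruvate kinase of most tissues, had 397, 408, 413, 270 and 386 CPM in testis and 1831, 1554, 746, 971 and 1521 in epididymis, also without overlap (a log2 fold change of -1.81 ± 0.29, with an edgeR adjusted p of 0.000117).

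Genes can be compared with each other only per length, as CPM per kilobase of the deposited gene length (RPKM). In testis the order was GAPDHS (542 ± 46.9 RPKM, SD, n = 5), PGK2 (172 ± 66.4), LDHC (98.6 ± 20.2), HK1 (74.9 ± 22.1), LDHA (30.1 ± 12.6), the PKM row (26.6 ± 4.22), HK2 (15.8 ± 3.03) and PGK1 (15.0 ± 5.54). The 3 germ cell isoforms led on this scale, which rests on the deposited lengths (1731 bases for PGK2, 1463 for LDHC and 6419 for HK1). Without division by length, HK1 (mean 481 CPM) and the PKM row (375) lay above PGK2 (298) and LDHC (144) in testis. Per length, LDHC lay above HK1 in all 5 libraries although their ranges overlapped, as did the PKM row above HK2. LDHA and the PKM row, and HK2 and PGK1, did not separate.

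In epididymis the order was the PKM row (94.1 ± 31.9 RPKM), LDHA (86.5 ± 49.2), PGK1 (61.1 ± 13.2), HK2 (59.0 ± 39.8), GAPDHS (36.6 ± 19.1) and HK1 (31.8 ± 5.54). Each of these overlapped the next in range, so the order of neighbours is not resolved. The PKM row (53.0 to 130 RPKM) and PGK1 (46.2 to 72.1) lay wholly above HK1 (24.4 to 39.2). PGK2 (1.81 ± 2.55) and LDHC (0.549 ± 0.604) followed LDHB (3.17 ± 0.830) near the bottom, and LDHB lay wholly under HK1.

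Within each library the germ cell isoform was set against its somatic counterpart as a ratio of reads per kilobase, which does not depend on library scaling. PGK2 exceeded PGK1 by 13.7, 8.65, 11.9, 11.7 and 11.6 times in testis replicates 1 to 5. In epididymis the same ratio was 0.00430, 0.0123, 0.137, 0.0186 and 0.00844. PGK2 thus led in 5 of 5 testis libraries and in 0 of 5 epididymis libraries. The testis ratio stayed within a narrow range even in replicate 4, where both genes were at their highest.

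LDHC exceeded LDHA by 4.09, 3.37, 4.81, 2.47 and 2.89 times in testis, and in epididymis the ratio was 0.00154, 0.00690, 0.0813, 0.00394 and 0.00186. The excess over LDHA was thus smaller than that of PGK2 over PGK1 in each testis library. Against the LDHB row the ratio was 144 to 592 in testis and 0.0547 to 0.511 in epididymis. GAPDHS exceeded the GAPDH row in all 10 libraries, by 2963 to 11888 times in testis and 62.8 to 877 in epididymis. With 2 to 14 reads of GAPDH per library these last ratios describe the deposited rows and not the mRNAs.

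**Figure D2:**
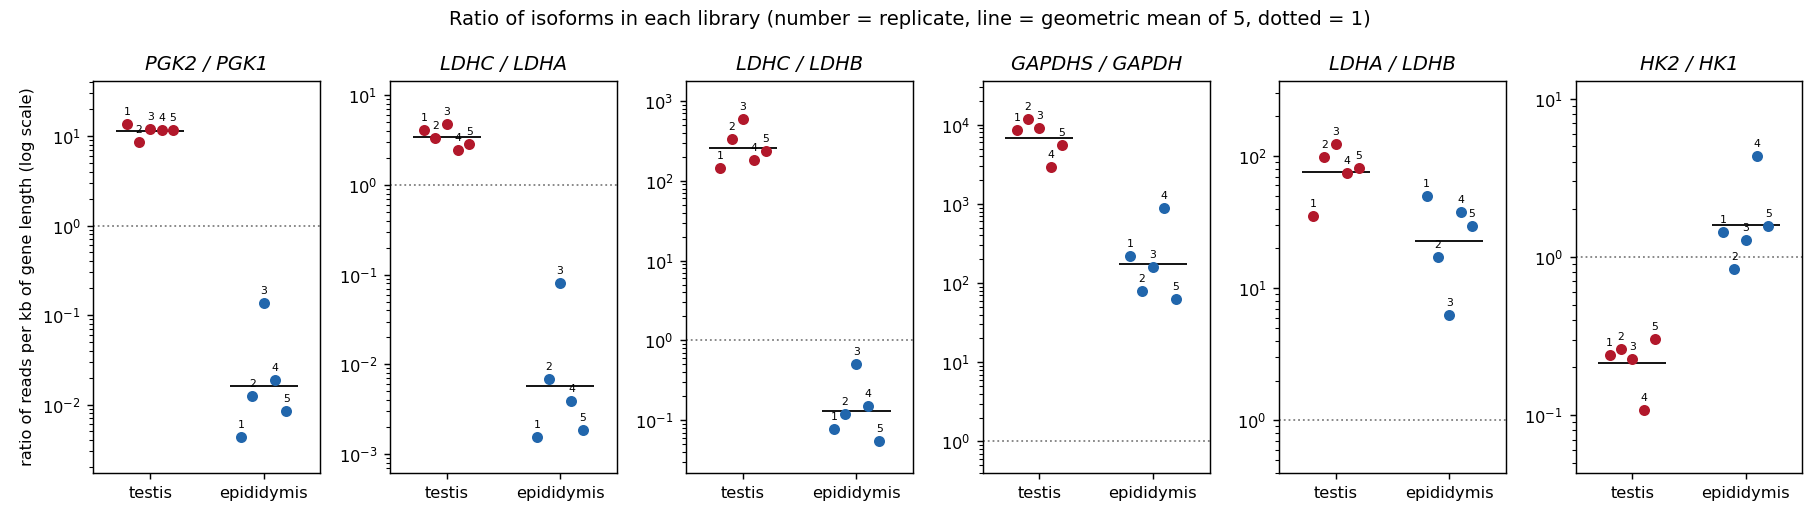
Ratio of reads per kilobase of gene length (log scale) for 6 pairs of isoforms in 5 testis (red) and 5 epididymis (blue) libraries, numbered by replicate, with the geometric mean as a line and equality dotted. PGK2 to PGK1 and LDHC to LDHA lie above 1 in all testis libraries and below 1 in all epididymis libraries, while LDHA to LDHB overlaps between tissues.

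Whether the tissue difference of an isoform differed from that of its counterpart was tested on these log2 ratios with an exact two-sided permutation test, for 6 ratios. Testis minus epididymis was 9.45 for PGK2 to PGK1, 9.22 for LDHC to LDHA, 10.97 for LDHC to LDHB and 5.32 for GAPDHS to GAPDH. Each of these 4 had an exact p of 0.007937, the smallest 5 against 5 libraries can give (0.009524 adjusted over the 6 ratios). HK2 to HK1 went the other way by 2.90 on the log2 scale, at the same exact p. HK2 was the lower of the pair in all 5 testis libraries (0.108 to 0.304) and the higher in 4 of 5 epididymis libraries (0.843 to 4.32).

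LDHA to LDHB differed by 1.75 (exact p = 0.02381, adjusted 0.02381 over the 6 ratios) and overlapped between tissues. Without testis replicate 2 or 3 its exact p was 0.05556. With labels exchanged only within boars, no ratio could pass the threshold, since the smallest exact p is 2 of 32 exchanges. Without epididymis replicate 3 the difference was 10.22 for PGK2 to PGK1 and 10.17 for LDHC to LDHA. Without epididymis replicate 4 it was 5.91 for GAPDHS to GAPDH. With 5 reads added to each count in place of 0.5 it was 9.98 for LDHC to LDHB. With 0.5 added but without testis replicate 4 and epididymis replicate 3 that ratio differed by 11.58.

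Expressed as shares of all per-length reads of a step, PGK2 made up 91.9 ± 1.32% of phosphoglycerate kinase in testis and 3.25 ± 4.93% in epididymis. LDHC made up 76.9 ± 4.63% of lactate dehydrogenase in testis, LDHA 22.8 ± 4.60% and LDHB 0.313 ± 0.158%. In epididymis LDHA held 93.2 ± 7.16% and LDHC 1.56 ± 2.77%. The epididymal shares of PGK2 and LDHC rest largely on replicate 3, at 12.0% and 6.50%, and their means without it were 1.05% and 0.321%. Without division by gene length (1463 bases for LDHC and 4337 for LDHA) PGK2 held 81.4% of its step in testis in the mean and LDHC 53.5%. LDHC then led LDHA in 3 of 5 testis libraries, while LDHA led in replicates 4 (54.4% against 45.4%) and 5 (50.6% against 49.3%). Again per length, HK1 held 79.8 ± 5.74% of the summed level of HK1, HK2, HK3 and HKDC1 in testis and 38.0 ± 12.4% in epididymis, where HK2 held 58.7 ± 12.9%.

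**Figure D3:**
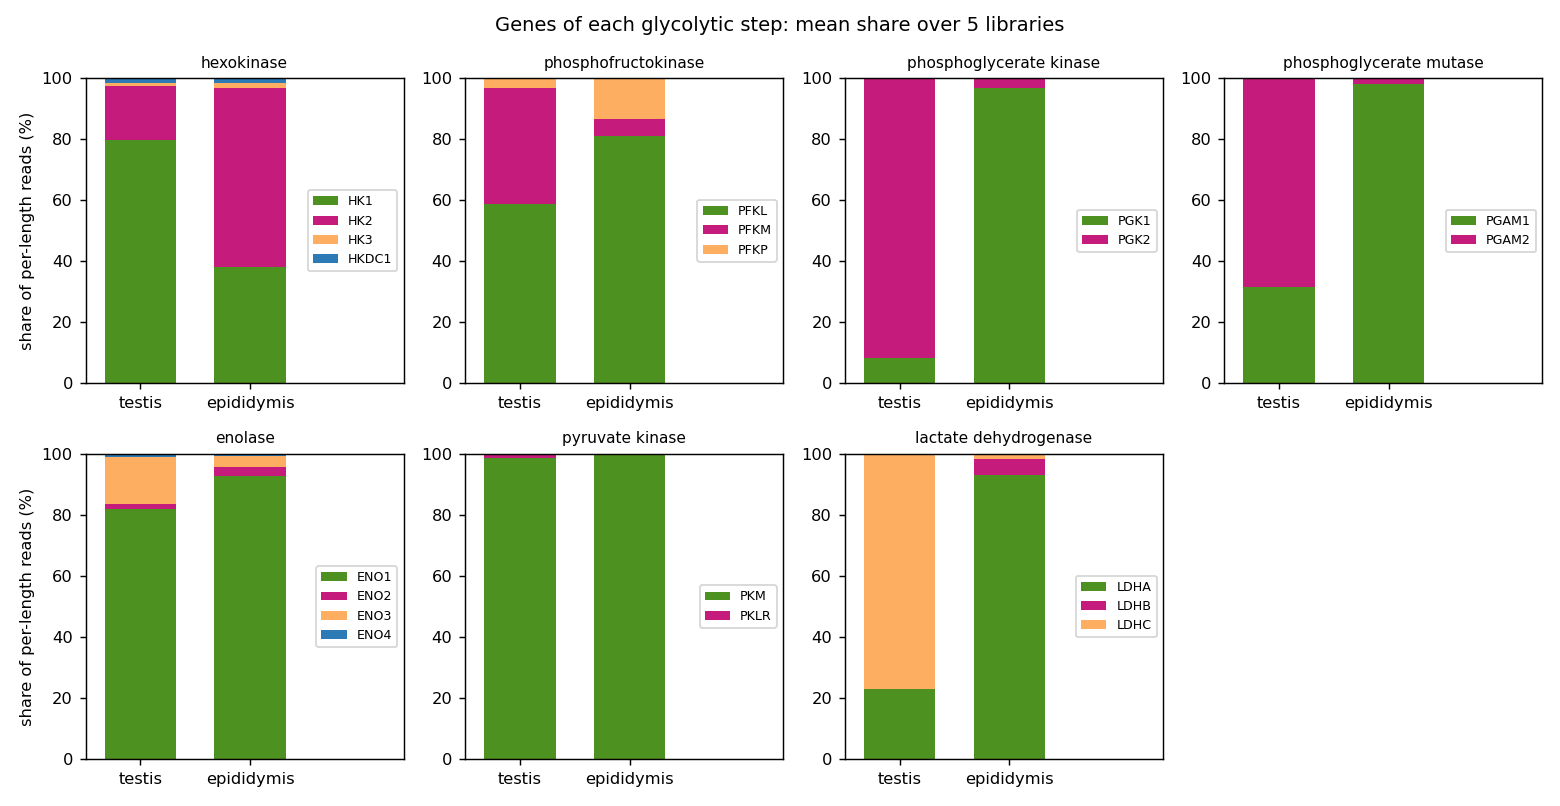
Mean share (percent, over 5 libraries) of the per-length reads of each glycolytic step that falls to each of the genes shown, for testis and epididymis. PGK2 holds 91.9% and LDHC 76.9% of their steps in testis, and PGAM2 holds 68.5% of phosphoglycerate mutase there against 1.73% in epididymis.

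Phosphoglycerate mutase, which acts after phosphoglycerate kinase, has a muscle form, PGAM2, and a form of most tissues, PGAM1. PGAM2 held 68.5 ± 8.18% of the per-length reads of this step in testis and 1.73 ± 1.55% in epididymis (1.12% without replicate 3). PGAM1 had 103 ± 35.9 CPM in testis against 112 ± 42.8 and overlapped between tissues; it did not pass the test (edgeR adjusted p = 0.783). The summed level of phosphoglycerate kinase was 187 ± 71.5 RPKM in testis and 62.9 ± 11.8 in epididymis, without overlap. This separation depends on division by gene length (4478 bases for PGK1 and 1731 for PGK2), since the summed CPM of both genes overlapped between the tissues. PGK1 had 50.8 to 110 CPM and PGK2 225 to 500 in testis, against 207 to 323 and 0.509 to 10.9 in epididymis. Summed lactate dehydrogenase overlapped between the tissues, at 99.1 to 179 RPKM in testis and 24.9 to 140 in epididymis.

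The low levels of germ cell isoforms in the epididymis were not alike. As a percentage of the testis mean, PGK2 stood at 0.171, 0.331, 3.68, 0.729 and 0.346 in epididymis replicates 1 to 5, and LDHC at 0.176, 0.341, 1.64, 0.385 and 0.238. The summed haploid marker list stood at 0.513, 0.538, 3.56, 0.982 and 0.683, and PRM1 at 0.135, 0.182, 3.71, 0.474 and 0.256. All 4 were highest in replicate 3 and next highest in replicate 4. The summed haploid list ranged from 103 to 716 CPM in epididymis and from 18371 to 23794 in testis, and none of its 17 genes was at 0 in all epididymis libraries. The meiotic list ranged from 16.9 to 50.3 CPM in epididymis and was not highest in replicate 3, which had 28.1 CPM.

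GAPDHS differed from this pattern. It stood at 8.26, 5.75, 3.24, 12.1 and 4.43% of its testis mean, lowest where PRM1 was highest. Within the haploid list AKAP3 and ACR were also not highest in replicate 3, whereas its other genes were. AKAP3 had 20.5, 15.8, 17.2, 26.8 and 18.5 CPM in epididymis replicates 1 to 5, and ACR 0.204, 3.56, 2.87, 1.72 and 1.08. PRM1 alone made up 290 of the 716 CPM of the summed list in replicate 3. In replicates 1, 2, 4 and 5 GAPDHS was at 4.43 to 12.1%, whereas PGK2 in those libraries was at 0.171 to 0.729%. TMEM147, whose gene lies next to GAPDHS, had 124, 135, 115, 80.0 and 122 CPM in epididymis and 75.5 ± 21.6 in testis, and was lowest where GAPDHS was highest. A RefSeq gene without a symbol overlaps GAPDHS over 3476 bases, and the strand setting of the counts is not given, so reads of GAPDHS and of that gene cannot be told apart. The part of the gene overlapping GAPDHS in the epididymal GAPDHS reads was not tested. Another gene without a symbol overlaps LDHC over 495 bases.

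**Figure D4:**
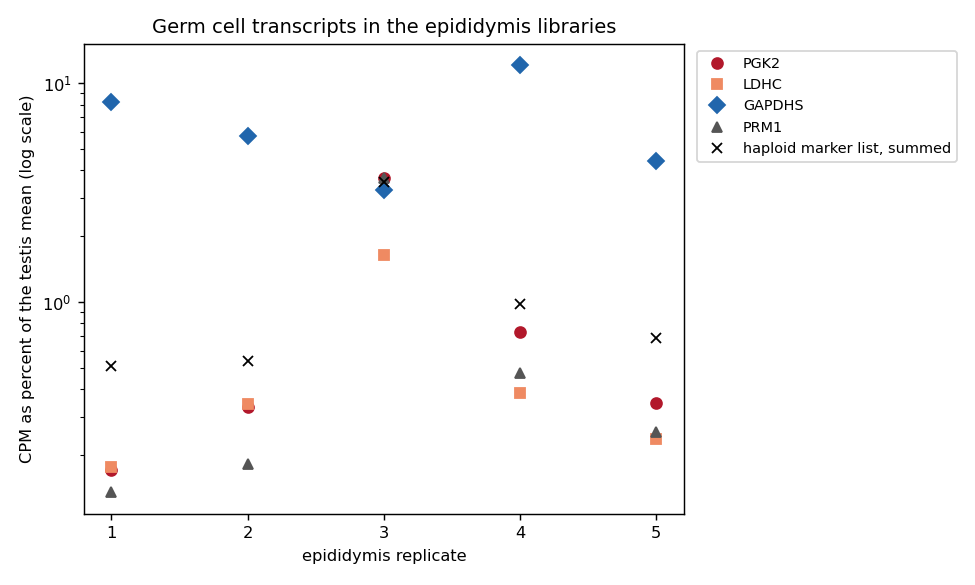
CPM of PGK2, LDHC, GAPDHS, PRM1 and the summed haploid marker list in each epididymis library, as a percentage of the mean of 5 testis libraries (log scale). PGK2, LDHC and PRM1 peak together in replicate 3 at 1.64 to 3.71%, while GAPDHS is lowest there at 3.24% and reaches 12.1% in replicate 4.

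Testis replicate 4 differed from the other 4 testis libraries in several members. It had 2.03 times their mean CPM of PGK2, 2.07 times of LDHA, 1.95 times of PGK1, 1.74 times of HK1 and 1.38 times of LDHC. It had less of GAPDHS (0.836 times), HK2 (0.731) and the PKM row (0.674). The same library had 7.75 CPM of the signal recognition particle RNA, near the epididymis libraries (1.00 to 8.27), and had the highest summed haploid list, 23794 CPM against 18371 to 20526. The genes of that list were not alike. PRM2 and TNP1 were at their highest in this library (1464 and 2396 CPM), but PRM1 and OAZ3 at their lowest (7532 and 923 CPM). The meiotic list was also lowest there, at 1242 CPM against 1445 to 1679. The header age of this library, 17 months, is the highest. The part of these in the member levels was not tested, and each of the 8 tested members kept its direction and call without this library.

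The rest of the pathway went both ways. Of the 26 other glycolytic enzymes listed, 24 had a row and 21 were tested. Of these, 9 were higher in testis, 3 were higher in epididymis and 9 were not called, with a median log2 fold change of 0.32. Of all 17225 genes tested, 36.6% were called toward testis and 37.8% toward epididymis. Calls in both directions are thus common here, and the counts of this and the other pathway lists are descriptive only. PGAM2 had 342 ± 27.7 CPM in testis and 2.74 ± 2.70 in epididymis (a log2 fold change of 7.0 ± 0.59, with an edgeR adjusted p of 8.56e-07). As for PGK2, the difference was larger without epididymis replicate 3, at log2 7.78. ENO3, the muscle enolase, had 127 ± 8.76 CPM against 14.8 ± 5.59, and PFKM, the muscle phosphofructokinase, 189 ± 28.5 against 31.7 ± 4.23. TPI1, triose phosphate isomerase, had 995 ± 101 against 344 ± 87.0 CPM.

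ENO3, PFKM and TPI1 were called higher in testis at log2 3.12 ± 0.28, 2.59 ± 0.16 and 1.54 ± 0.22 (edgeR adjusted p = 1.39e-06, 1.00e-07 and 5.45e-05). ENO1, the enolase of most tissues, had 938 ± 105 CPM in testis against 614 ± 194 (a log2 fold change of 0.63 ± 0.26, with an edgeR adjusted p of 0.0430). This call was lost without testis replicate 2, 3 or 5 or epididymis replicate 2, 4 or 5, with edgeR adjusted p-values of 0.0505 to 0.0890. The row paired with ALDOA held so few reads that the aldolase step summed to 0.249 ± 0.127 RPKM in testis, and it is not read further.

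The 3 called higher in epididymis included PFKP, the platelet phosphofructokinase, with 40.1 ± 7.43 CPM against 8.71 ± 0.594 in testis. Its log2 fold change was -2.18 ± 0.18 (edgeR adjusted p = 6.23e-07). PFKL, the liver form, fell by 0.59 ± 0.16 on the log2 scale in testis, with 174 ± 25.8 against 267 ± 15.8 CPM (edgeR adjusted p = 0.00596). HK3, a hexokinase of blood cells, had 7.90 ± 0.919 CPM in testis and 12.4 ± 2.76 in epididymis, with overlap (a log2 fold change of -0.63 ± 0.22, with an edgeR adjusted p of 0.0207). Its call was lost with the boar as a block (0.0637), with DESeq2 size factors (0.0566), and without testis replicate 1, 2 or 3 or epididymis replicate 1 (0.0557 to 0.0656). Of the blood cell genes 5 were tested and all 5 were called higher in epididymis. The list summed to 63.1 to 201 CPM in epididymis and 11.5 to 30.2 in testis. CD68 had its highest epididymis mean, 78.6 ± 47.2 CPM, and HBB, ALAS2 and CD14 overlapped between tissues. SLC4A1 did not move with them, at 0.232 ± 0.169 CPM in testis and 0.160 ± 0.167 in epididymis. The part of blood cells in the HK3 level was not tested.

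**Figure D5:**
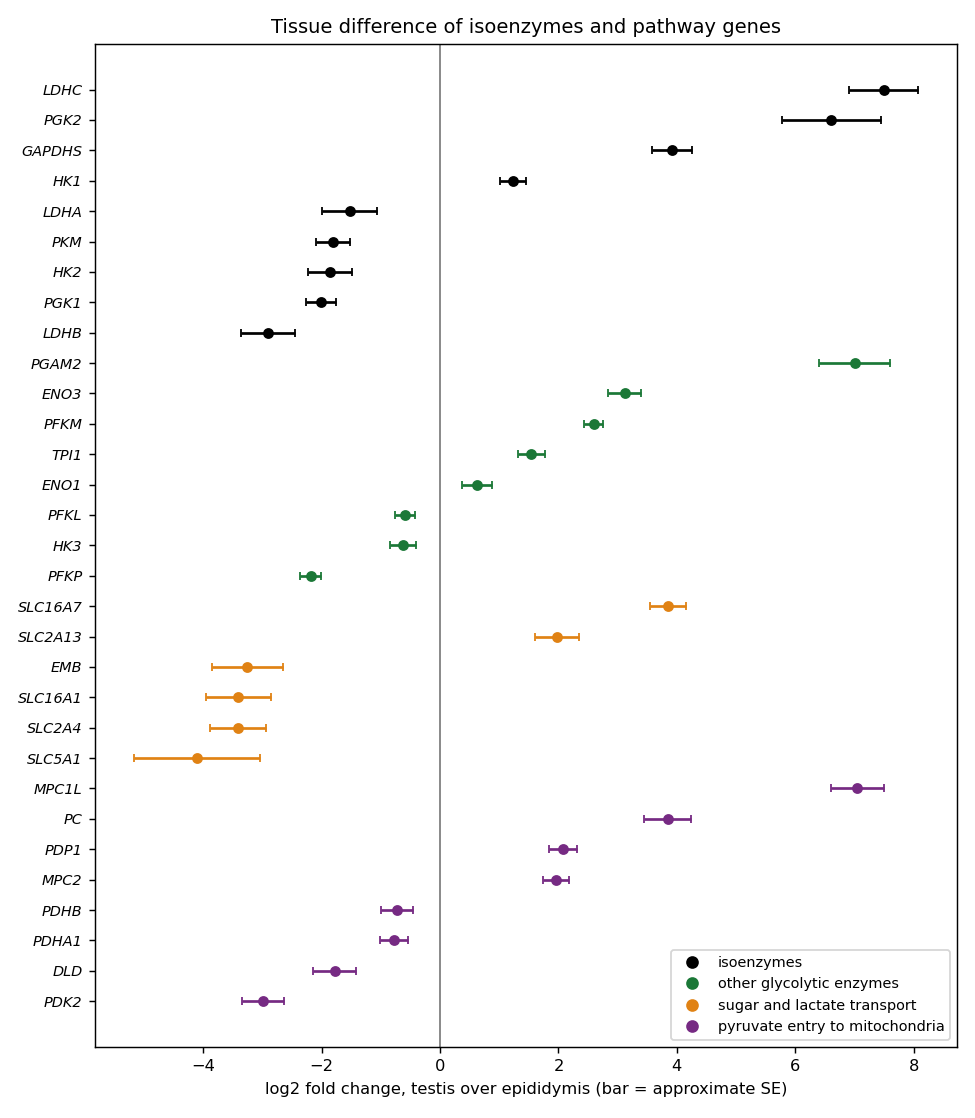
Log2 fold change, testis over epididymis, with approximate SE for the tested members, the PKM row and named genes of the pathway. LDHC, PGK2, PGAM2 and MPC1L lie beyond 6 toward testis, and SLC5A1, SLC2A4, SLC16A1 and EMB lie beyond -3 toward epididymis.

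Transporters of sugar and lactate also went both ways. Of 16 listed, 13 had a row and 11 were tested, with 2 higher in testis, 5 higher in epididymis and a median log2 fold change of -0.50. The shares over all genes tested were 36.6% and 37.8%. SLC2A1, SLC2A3 and BSG were listed but had no row. SLC16A7, a monocarboxylate carrier (MCT2), had 36.9 ± 8.55 CPM in testis and 2.61 ± 1.17 in epididymis (a log2 fold change of 3.85 ± 0.30, with an edgeR adjusted p of 4.79e-07). SLC16A1, the carrier MCT1, had 29.6 ± 4.69 CPM in testis and 319 ± 212 in epididymis (a log2 fold change of -3.41 ± 0.55, with an edgeR adjusted p of 0.000131). The carriers thus ran in opposite directions. EMB, a membrane partner of such carriers, had 4.90 ± 0.864 against 46.4 ± 34.2 CPM.

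SLC2A4, the insulin-regulated glucose transporter, had 1.19 ± 0.354 CPM in testis and 13.0 ± 7.13 in epididymis. SLC2A13, an inositol transporter, had 6.28 ± 1.37 CPM in testis against 1.60 ± 0.826. These and EMB were called at log2 -3.41 ± 0.47, 1.98 ± 0.38 and -3.26 ± 0.60 (edgeR adjusted p = 3.60e-05, 0.000474 and 0.000393). SLC5A1, a sodium-glucose cotransporter, had 8.66 to 16.6 CPM in testis and 131, 146, 6.43, 24.7 and 878 CPM in epididymis replicates 1 to 5. Replicate 3 lay below the whole testis range, and the log2 fold change of -4.10 ± 1.06 (edgeR adjusted p = 0.00389) was -2.49 without epididymis replicate 5 and -2.56 with the boar as a block.

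Of 17 genes of pyruvate entry to mitochondria, 15 had a row and were tested, with 7 higher in testis, 5 higher in epididymis and a median log2 fold change of 0.51. Over all genes tested the shares were 36.6% and 37.8%. MPC1 and PDHA2 were listed but had no row, so their levels are not known here. MPC1L, a testis form of the pyruvate carrier subunit, had 13.3 to 38.6 CPM in testis and 0.0912 to 0.222 in epididymis (a log2 fold change of 7.05 ± 0.44, with an edgeR adjusted p of 9.02e-08). Its highest value was in testis replicate 4. MPC2, the other carrier subunit, had 57.6 ± 4.72 against 15.1 ± 4.73 CPM, and PDP1, the phosphatase that activates pyruvate dehydrogenase, 90.2 ± 12.9 against 21.9 ± 7.68. PC, pyruvate carboxylase, had 616 to 2191 CPM in testis, highest in replicate 2, and 58.9 to 84.7 in epididymis.

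The log2 fold changes of these 3 were 1.96 ± 0.22, 2.07 ± 0.24 and 3.84 ± 0.40 (edgeR adjusted p = 9.33e-06, 8.67e-06 and 4.34e-06). PDK2, a kinase that inhibits pyruvate dehydrogenase, had 40.4 ± 9.66 CPM in testis and 324 ± 131 in epididymis (a log2 fold change of -2.99 ± 0.35, with an edgeR adjusted p of 1.09e-05). DLD, a shared dehydrogenase subunit, had 21.2 ± 13.9 against 72.4 ± 20.9 CPM (a log2 fold change of -1.78 ± 0.36, with an edgeR adjusted p of 0.000831). It was -2.36 without testis replicate 4 and epididymis replicate 3.

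PDHA1 and PDHB, the subunits of the first enzyme of that complex, had 37.4 ± 16.0 against 64.5 ± 8.79 CPM and 52.1 ± 24.7 against 87.1 ± 17.4 CPM, both with overlap. Both were called (a log2 fold change of -0.77 ± 0.24 and -0.73 ± 0.27, with an edgeR adjusted p of 0.0115 and 0.0274). PDHA1 lost its call without testis replicate 1 or 3 (0.0545 and 0.0571). PDHB lost it with DESeq2 size factors (0.0640), with the DESeq2 test (0.0799), and without testis replicate 1, 2, 3 or 5 or epididymis replicate 1 or 5, with edgeR adjusted p-values of 0.0562 to 0.115.

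The genes whose log2(CPM + 0.5) ran most like each germ cell isoform over the 10 libraries were named as a description, since most of each correlation comes from the step between the tissues. For PGK2 they were TMEM239, TEX35 and ACSBG2, each with a Pearson r of 0.999. For LDHC they were CCDC70 (0.9995), C7orf31 (0.999) and H1-7 (0.999). For GAPDHS they were PAGE2B (0.997), NF2 (0.994) and OSBPL10 (0.994). PGK2 and LDHC had an r of 0.993 with each other, and GAPDHS had 0.911 with PGK2 and 0.944 with LDHC. The first gene of each, TMEM239, CCDC70 and PAGE2B, had 117 ± 43.9, 119 ± 25.4 and 73.6 ± 11.6 CPM in testis and 1.83 ± 2.91, 0.945 ± 1.05 and 2.60 ± 1.69 in epididymis.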

How the data were processed

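Per the submitters' processing notes, the authors used cutadapt 3.0, STAR and featureCounts of Subread with build Sscrofa11.1. Annotation release, strand setting and the handling of multi-mapping reads were not given in the sources used here. Each deposited table gives, per the file headers, a gene length and whole-number read counts with no normalization. Of 15226 rows named by an Ensembl identifier, 822 matched a reference table of gene names and 810 took its symbol.

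CPM is reads per 1000000 reads of the library, and RPKM is CPM per kilobase of the deposited length. Tissues were compared over all genes with R 4.3.3 and edgeR 4.0.16 (filterByExpr, TMM, quasi-likelihood test, robust, tissue as the only term), with Benjamini-Hochberg adjustment over 17225 genes and a call at 0.05. SEs are approximate, from the unshrunk log2 fold change and the F statistic. On simulated data of the same layout (16438 genes) 100% of 4-fold and 58% of 2-fold changes were recovered. There, 100 genes were changed at each size, as many up as down, and all genes had the same dispersion. In the real comparison 74.4% of genes were called and the spread differed between genes, so these rates need not hold for it. Ratios used reads plus 0.5 over gene length. Alternatives were DESeq2 1.42.0 and its size factors, library totals, no filter, a boar block, leaving out libraries and, for ratios, 5 added reads and medians.

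Libraries of a replicate number come from the same boar per the file headers, and their deviations from the group means correlated at 0.00614 to 0.0968. No pair of libraries was identical (lowest chi-square per degree of freedom 9.53 in testis and 72.5 in epididymis). Testis pairs with replicate 4 had 152 to 198, and the other testis pairs 9.53 to 26.6. The p-values measure the spread between 5 libraries per tissue, each from another boar. Animal, age and library preparation cannot be told apart in that spread. All 10 members are named, with, from each pathway list, up to 4 called genes of largest change per direction, the 2 most abundant, and for each germ cell isoform the 3 genes of most similar pattern with at least 10 CPM in testis. The members and lists were chosen with earlier results of these data known. An item of a pathway list is not reported here and was left out of its counts and shares. Sequences of the members and the long-read samples were not used here.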

Additional observations from a re-analysis of the deposited data

Results flagged for a closer look

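In each tissue's group of 5, a library was singled out where its gap to the nearest other exceeded 0.71 of the whole range. Of 34 groups examined 7 were singled out, and chance alone singles out about 5% of groups. Testis replicate 4 stood apart in 4 of them. It was high for PGK2 (500 CPM, gap 0.818 of the range), PGK1 (110 CPM, 0.724) and HK1 (730 CPM, 0.798), and low for the PKM row (270 CPM, 0.813). Epididymis replicate 3 stood apart in 3, always high. These were PGK2 (10.9 CPM, gap 0.841), LDHC (2.37 CPM, 0.857) and the summed haploid germ cell markers (716 CPM, 0.846).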

How the results depend on the processing

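All 8 tested members and the PKM row kept their direction and call under all 16 alternatives of the edgeR comparison, and 4 members were called in each direction in each. The adjusted p reached 0.0368 at most, for LDHA without testis replicate 3 in edgeR. Of 31 named pathway genes 26 also kept theirs, the exceptions being ENO1, HK3, PDHA1, PDHB and PYGM. DESeq2 size factors moved the median log2 fold change of all genes by 0.13, less than the log2 fold change of every tested member. With the replicate block, which exchanges labels within boars, the ratio differences were 9.45, 9.22, 10.97, 5.32, 1.75 and -2.90 for PGK2 to PGK1, LDHC to LDHA, LDHC to LDHB, GAPDHS to GAPDH, LDHA to LDHB and HK2 to HK1. None passed the threshold there: the exact p was 0.125 for LDHA to LDHB and, for the others, 2 of 32 exchanges, the smallest that test allows. The block in edgeR changed no call of a member. LDHA to LDHB ranged from 1.28 to 2.03 when single libraries were left out and was 1.29 without testis replicate 4 and epididymis replicate 3 (exact p = 0.08571). Without division by length the testis shares became 18.6% for PGK1, 81.4% for PGK2, 46.3% for LDHA and 53.5% for LDHC, with LDHA above LDHC in testis replicates 4 and 5. Leaving epididymis replicate 3 out of the shares was chosen after seeing the data. The promoter and protein comparison that was planned was not run. At 2 to 14 reads per library no GAPDH difference was called: DESeq2 gave an adjusted p of 0.0693, and edgeR without the filter 0.0572.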

Other observations

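Genes of gluconeogenesis, glycogen and the sorbitol route, which feed or bypass the glycolytic steps, were also compared. Of 19 listed, 18 had a row and 16 were tested, with 8 higher in testis, 5 higher in epididymis and a median log2 fold change of 0.50. Over all genes tested 36.6% were called toward testis and 37.8% toward epididymis. SORD, which turns sorbitol into fructose, had 125 ± 22.6 CPM in testis and 7.63 ± 3.92 in epididymis (a log2 fold change of 4.08 ± 0.33, with an edgeR adjusted p of 6.16e-07). AKR1B1, aldose reductase, the enzyme before it, had 161 ± 21.6 CPM in testis and 610 ± 395 in epididymis, with overlap (a log2 fold change of -1.87 ± 0.41, with an edgeR adjusted p of 0.00126). FBP2, the muscle fructose bisphosphatase, had 4.63 to 8.04 CPM in testis and 2 reads in all epididymis libraries together, a ratio of 310 with a 95% exact counting interval of 85.5 to 2565. PCK2, mitochondrial phosphoenolpyruvate carboxykinase, had 71.6 ± 4.19 CPM in testis against 13.8 ± 10.3.

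The phosphoglucomutases split. PGM1 had 37.8 ± 9.40 CPM in testis against 7.90 ± 1.94, and PGM2 had 8.63 ± 1.34 against 49.5 ± 28.4 in epididymis. Both were called (a log2 fold change of 2.28 ± 0.22 and -2.48 ± 0.35, with an edgeR adjusted p of 2.66e-06 and 4.34e-05), as was PCK2 (a log2 fold change of 2.38 ± 0.43, with an edgeR adjusted p of 0.000337). GPD1 and GPD2, the glycerol phosphate dehydrogenases, were called higher in epididymis (a log2 fold change of -1.41 ± 0.44 and -1.27 ± 0.34, with an edgeR adjusted p of 0.0123 and 0.00496). GPD1 was at -0.68 without epididymis replicate 3, where it reached 296 CPM. PYGM, muscle glycogen phosphorylase, had 401 ± 63.6 against 325 ± 97.6 CPM and was not called (edgeR adjusted p = 0.245). Without epididymis replicate 2 it was called higher in testis (edgeR adjusted p = 0.0480).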
